A study of Arabidopsis thaliana with 36 samples.

Results

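Pseudouridine (Ψ), the rotated isomer of uridine, was measured in the 5' side of the anticodon arm of Arabidopsis thaliana tRNAs encoded in the nucleus. The sites described here were the entries of the deposited tRNA table whose tRNA name carries the nuclear label, whose amino acid is not Leu, Ser or Tyr, and whose position lies from 26 to 33 along the authors' reference. The rule gave 39 sites in 37 tRNA names of 14 amino acids, out of 349 tRNA sites in 144 names, of which 236 sites carry the nuclear label. At the upper edge, the sites next outside the window were Gly-TCC-1 and Thr-AGT-1 at position 34, with medians over the tissues of 0.204 and 0.331. The 6 sites just inside it, at 33, had medians from 0.369 to 0.767. At the lower edge, the 5 sites at 26 had medians from 0.287 to 0.669, and the nearest site outside was Val-CAC-1 at position 23, with a median of 0.365.

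All samples were wild-type plants of the ecotype Col-0, with no mutation or treatment of the plants. Seedlings, shoots and roots came from plants grown on plates, and flower, silique, stem, cauline leaf and rosetta leaf (the labels' spelling) from plants grown on in soil. Seeds were mature and dried. Total RNA of each of these 9 tissues was profiled by BID-seq, in which bisulfite turns Ψ into an adduct that reverse transcription skips, so that Ψ is read as a deletion, with 2 bisulfite-treated and 2 untreated input libraries per tissue. The value deposited for a site in a tissue is its Ψ fraction, the share of molecules that carry Ψ, and it is a single value that the authors pooled over both treated replicates. It comes with neither a replicate spread nor a depth, so no difference below could be set against experimental error, and none was tested. Each value also carries a pass mark from a filter of the authors that rests on p-values and whose thresholds were not stated. All 351 values of the 39 sites were present. The assay reports a modification and not expression, so the tissue labels could not be checked against marker genes.

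The anticodon arm is a stem of 5 base pairs closed by a loop that presents the anticodon at positions 34 to 36. Positions 27 to 31 form the 5' strand of the stem and pair with positions 43 to 39, and positions 32 and 33 are the loop bases just before the anticodon. Position 33 is almost always a uridine, around which the loop makes its sharp turn. In yeast, Pus1 makes Ψ at 27 and 28 of several tRNAs, and separate enzymes make Ψ at 32 in cytoplasmic and in mitochondrial tRNAs.

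Table positions run along each reference, and tRNAs differ in the length of the D loop before the arm, so the same table position is not the same place in every tRNA. Positions were therefore also counted from the anticodon of annotated nuclear tRNA genes in the TAIR10.1 assembly that have the same amino acid and anticodon and a T at each listed position. Of the 37 names, 36 matched, and the first anticodon base was set to 34. All matched genes of a name placed the anticodon alike in 33 of the 36 names and had the same arm in 15, and 3 names were placed by a single listed site. Pro-CGG-2 did not match, with 3 of its 4 listed positions on a T in the best gene. By this count 17 sites lay at position 27, 9 at position 28, 10 at position 33 and 2 at position 34. In what follows a plain position is counted from the anticodon, and "table position" keeps the deposited number. The 12 matched sites of the loop and the site of Pro-CGG-2, which stands at table position 33, are called the loop sites, 13 in all.

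The arms that carry the main groups are shown as DNA, positions 27 to 43, 5' to 3', from the commonest arm among the matched TAIR10.1 genes, with the base listed as Ψ in capitals (T is U in the RNA). The first 6 hold a site at position 27, the next 4 one at position 28, and the last 6 one in the loop.
Trp-CCA-1 (AT1G15450, chr1:5309647-5309718): Tctgactccagatcaga
Thr-TGT-1 (AT1G05980, chr1:1817400-1817471): Tcagtcttgtaaactga
Asn-GTT-1 (AT1G69300, chr1:26049478-26049551): Tgtggctgttaaccaca
Ile-AAT-2 (AT1G06480, chr1:1978084-1978157): Tcgtgctaataacgcga
Glu-TTC-4 (AT1G09110, chr1:2939417-2939488): Tctggctttcacccagg
Gln-CTG-3 (AT2G16240, chr2:7039094-7039165): Ttggactctgaatccag
Gln-CTG-2 (AT2G16240, chr2:7039094-7039165): tTggactctgaatccag
Gln-TTG-1 (AT1G21420, chr1:7499733-7499804): cTggactttgaatccag
Cys-GCA-2 (AT2G39600, chr2:16518564-16518635): aTtgactgcagatcaat
Met-i-CAT-2 (AT1G69000, chr1:25941164-25941235): gTgggcccataacccac
Gly-CCC-1 (AT2G47740, chr2:19559855-19559925): gtacccTcccacggtac
Pro-AGG-1 (AT1G28870, chr1:10099425-10099496): ctcgctTagggtgcgag
Pro-CGG-1 (AT2G21360, chr2:9137356-9137427): ctcgctTcgggtgcgag
Pro-TGG-2 (AT1G28740, chr1:10090368-10090439): ctcgcttTgggtgcgag
Thr-CGT-1 (AT1G13720, chr1:4709635-4709706): ttcgctTcgtaagcgaa
His-GTG-1 (AT1G02600, chr1:552640-552711): ccacgtTgtggccgtgg

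A deletion inside a run of identical bases can be placed on any base of the run. Of the 38 matched sites, 19 stood on a single T and 19 in a run of T. The loop sites of Pro, Thr, His and Arg-CCT-1 all lay in a run of T that includes position 32, so position 32 and position 33 cannot be told apart there, and Gly-CCC-1 was the only matched loop site on a single T. Gln-CTG-3 and Gln-CTG-2 share 1 arm with a run of T at positions 27 and 28, and are listed at 27 and at 28. Names of one family also share sequence. Pro-AGG-1 and Pro-TGG-1 had identical values in all 9 tissues, although their arms differ at position 34, as had Pro-CGG-2 and Pro-TGG-3, which leaves 37 distinct sets of values. A name does not stand for a single gene either, with up to 44 matched genes for a name.

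Among the listed sites, those at position 28 had the highest group median. Only listed sites enter here. Of the 68 matched names in the table outside Leu, Ser and Tyr, 44 had a T at 28 and 9 were listed, against 17 of 27 at position 27. The unlisted T bases were not part of this ranking. Its 9 sites, in Cys, initiator Met (Met-i) and Gln tRNAs, had medians over the 9 tissues from 0.754 to 0.956, with a group median of 0.892. The 17 sites at position 27, one base 5' in the same strand, had medians from 0.122 to 0.979 and a group median of 0.30. The 13 loop sites spanned 0.039 to 0.767 around a median of 0.47. The median of the sites at 28 was above that of the sites at 27, and above that of the loop sites, in 9 of 9 tissues. The sites at 28 were spread over table positions 27 and 28. The medians by table position were 0.30 at 26 (5 sites), 0.838 at 27 (12 sites), 0.40 at 28 (9 sites), 0.251 at 32 (7 sites) and 0.523 at 33 (6 sites). These groups by anticodon position were formed after the values had been seen.

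**Figure D1:**
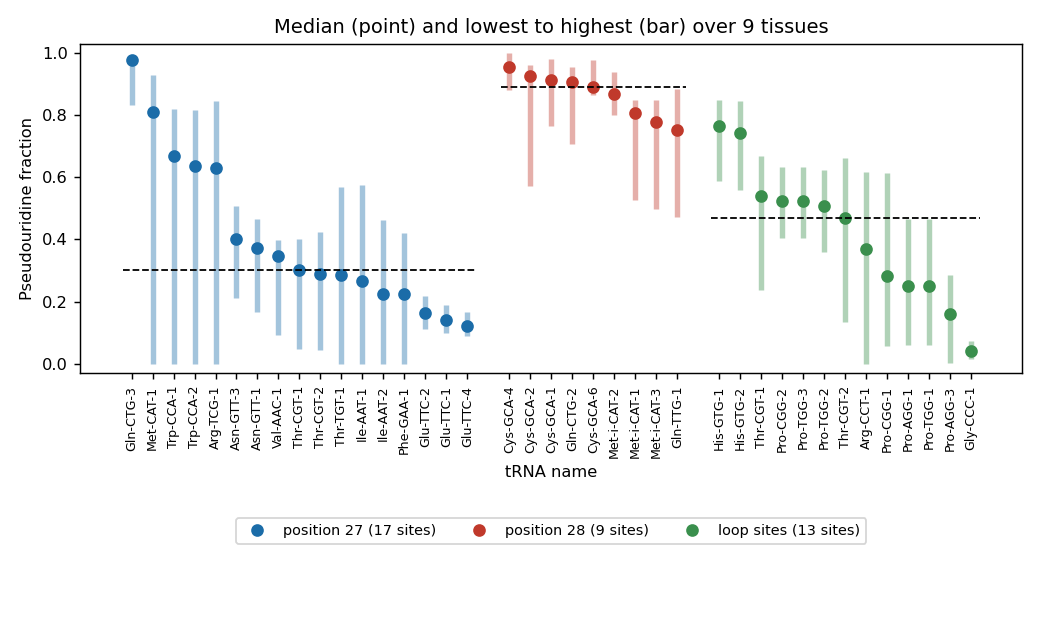
Ψ fraction of each of the 39 sites, with the median over 9 tissues as a point and the lowest to highest tissue as a bar, grouped by position counted from the anticodon, and the group median as a dashed line. The 9 sites at position 28 lie at or above 0.754, while most sites at position 27 lie below 0.50 and the loop sites fall between 0.039 and 0.767.

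The pass mark, drawn from the same data as the fractions and so no separate support, gave the same order. At position 28, 5 of 9 sites passed in all 9 tissues (55.6%), against 3 of 17 at position 27 and 3 of 13 in the loop. Over the 39 sites, 11 passed in all 9 tissues (28.2%), where the share over all 349 tRNA sites was 54.7%, near that at position 28. Of the remaining sites, 16 passed in 7 or 8 tissues and 7 in at most 3. By tissue, 24 of the 39 passed in seedling, 34 in shoot and 20 in root, where 81.1%, 84.2% and 73.9% of all tRNA sites passed. In rosetta leaf 36 passed, in cauline leaf 29 and in stem 33, beside 85.4%, 75.4% and 79.9% of all tRNA sites. Flower had 32, silique 31 and seed 18, beside 79.7%, 82.2% and 61.9%. The shares of the 39 sites lay furthest under these backgrounds in root (51.3%), seedling (61.5%) and seed (46.2%), and none of these differences was tested.

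**Figure D2:**
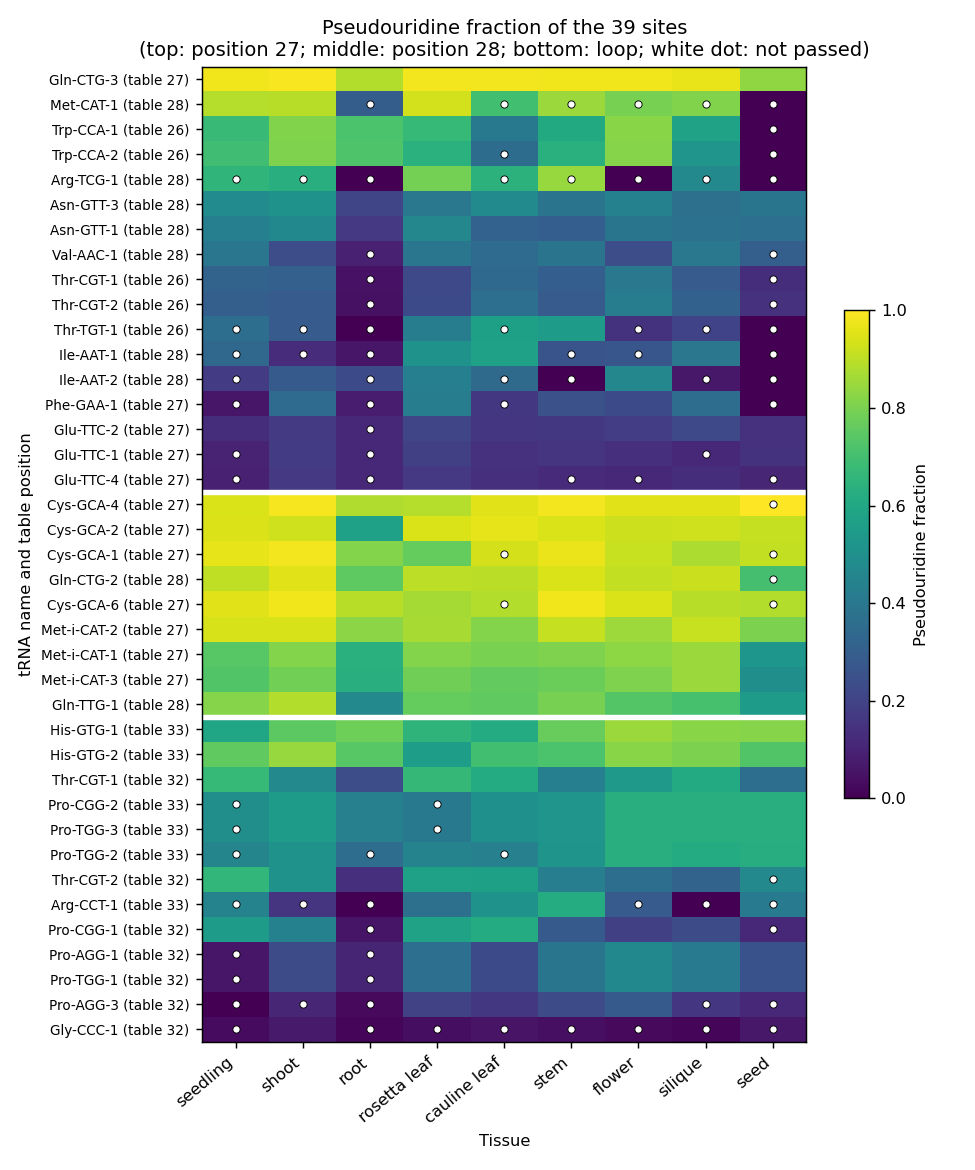
Ψ fraction (colour, 0 to 1) of the 39 sites (tRNA name with its table position) in the 9 tissues, ordered by median within the sites at position 27 (top), position 28 (middle) and the loop (bottom). White dots mark values that did not pass the authors' filter, which lie mostly in seed, root and seedling, and the darkest cells in the seed column, listed at 0, all belong to the top block.

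Among the sites at 28, the 4 Cys-GCA names had medians of 0.892 to 0.956, a span that also held Gln-CTG-2. Cys-GCA-2, given in full after its values had been seen, had fractions of 0.946 in seedling, 0.926 in shoot, 0.571 in root, 0.944 in rosetta leaf, 0.961 in cauline leaf, 0.942 in stem, 0.923 in flower, 0.928 in silique and 0.913 in seed, and passed in all 9. Root alone stood below the others, which spanned a narrow band. In root the 4 names differed by up to 0.321, since the other 3 read 0.813 to 0.892 there.

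Gln-CTG-2, the highest site at table position 28, read 0.906 in seedling, 0.956 in shoot, 0.750 in root, 0.902 in rosetta leaf, 0.897 in cauline leaf, 0.943 in stem, 0.907 in flower, 0.921 in silique and 0.707 in seed. Root and seed were its low tissues. Gln-TTG-1, whose arm differs from that of Gln-CTG-2 at positions 27 and 34, had a median of 0.754 and was lowest in root (0.472) and in seed (0.548). Gln-CTG-3 was listed at position 27 of the arm it shares with Gln-CTG-2. It read 0.979 in seedling, 0.992 in shoot, 0.885 in root, 0.984 in rosetta leaf, 0.984 in cauline leaf, 0.980 in stem, 0.978 in flower, 0.967 in silique and 0.834 in seed, the highest median of all 39 sites. In its run of T the positions 27 and 28 cannot be told apart, which holds also for the sites of Thr-CGT-1 and Thr-CGT-2 at position 27, with medians of 0.30 and 0.288.

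The initiator Met tRNAs, which start translation in the cytosol, had medians of 0.777 to 0.869 at position 28 and passed in all 9 tissues under each of the 3 names. Met-i-CAT-2 spanned 0.802 to 0.941. Met-i-CAT-1 and Met-i-CAT-3 were lowest in seed, at 0.526 and 0.497, and highest in silique, at 0.850 and 0.851. The 3 names differed by a median of 0.135 over the tissues and most in seed, by 0.305.

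At position 27 the sites formed a graded series. After Gln-CTG-3 came Met-CAT-1, the elongator Met tRNA that inserts Met inside proteins, with a median of 0.810. Its fractions were 0.890 in seedling, 0.894 in shoot, 0.293 in root, 0.931 in rosetta leaf, 0.698 in cauline leaf, 0.851 in stem, 0.795 in flower, 0.810 in silique and 0 in seed. This gave the largest range of the 39 sites, 0.931, but the site passed only in seedling, shoot and rosetta leaf, where it spanned 0.890 to 0.931. The 2 low tissues were thus among those without a pass. Met-CAT-1 was matched through 1 listed position only.

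The tryptophan tRNAs followed. Trp-CCA-1 read 0.679 in seedling, 0.809 in shoot, 0.718 in root, 0.669 in rosetta leaf, 0.404 in cauline leaf, 0.608 in stem, 0.822 in flower, 0.578 in silique and 0 in seed. Trp-CCA-2 read 0.692, 0.807, 0.726, 0.637, 0.354, 0.633, 0.817, 0.521 and 0 in the same order. Flower and shoot were high under both names and cauline leaf was the lowest tissue above 0. Root was not low here, and the names differed by a median of 0.013.

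Arg-TCG-1 had fractions of 0.656 in seedling, 0.630 in shoot, 0 in root, 0.791 in rosetta leaf, 0.642 in cauline leaf, 0.845 in stem, 0 in flower, 0.471 in silique and 0 in seed. It passed in rosetta leaf alone, so its range of 0.845 rests on values that did not pass. Asn-GTT-1 and Asn-GTT-3 were intermediate, with ranges of 0.301 and 0.299, close to the 0.308 of Val-AAC-1. They passed in all 9 tissues, had medians of 0.373 and 0.40, and were lowest in root, at 0.166 and 0.210.

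The lower part of the series held Val, Thr, Ile, Phe and Glu tRNAs. Val-AAC-1 had a median of 0.348, and the threonine names Thr-CGT-1 and Thr-CGT-2 had 0.30 and 0.288 and differed from each other by at most 0.025. Thr-TGT-1 read 0.363 in seedling, 0.287 in shoot, 0 in root, 0.418 in rosetta leaf, 0.570 in cauline leaf, 0.551 in stem, 0.148 in flower, 0.201 in silique and 0 in seed. Ile-AAT-2, lowest at table position 28, read 0.177 in seedling, 0.285 in shoot, 0.225 in root, 0.432 in rosetta leaf, 0.347 in cauline leaf, 0 in stem, 0.463 in flower, 0.066 in silique and 0 in seed. These passed in 2 and 3 tissues. Ile-AAT-1 and Phe-GAA-1 had medians of 0.266 and 0.224 and passed in 3 and 5 tissues.

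The glutamate tRNAs were lowest at position 27 and had the smallest ranges there. Glu-TTC-4 read 0.090 in seedling, 0.167 in shoot, 0.114 in root, 0.167 in rosetta leaf, 0.139 in cauline leaf, 0.122 in stem, 0.113 in flower, 0.130 in silique and 0.109 in seed. The 3 Glu-TTC names had medians of 0.122 to 0.163 and ranges of 0.077 to 0.109, against a median range of 0.378 over the sites at 27. Set against their level the spread was not small, as Glu-TTC-4 went from 0.090 to 0.167 and Gln-CTG-3 from 0.834 to 0.992. Seed, at 0 or low in most other sites at 27, lay within the values of the remaining tissues in the Glu names.

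The arm sequences allowed the modified and unlisted T bases to be set side by side. Of 68 matched nuclear tRNA names in the table outside Leu, Ser and Tyr, 27 had a T at position 27, and 17 of these were listed as sites. At position 28, 44 had a T and 9 were listed. None of the 11 T bases at position 26, the 23 at position 29 or the 11 at position 31 was listed, but the listed sites of the Cys-GCA names lie in runs that reach position 29 and that of Arg-CCT-1 in a run that starts at 31, so these bases cannot be told apart from the listed ones. Names enter the table through at least 1 listed site somewhere, and a T that is not listed is not thereby unmodified.

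At position 28 the neighbours of listed and unlisted T bases overlapped but differed in their counts. The base before was C in 1 of 9 listed names and in 22 of 35 unlisted names. The base after was G in 5 and T in 4 of the listed names, whereas it was C in 17 of the 35 unlisted names. The partner at position 42 was A in 9 of 9 listed names and in 32 of 35 unlisted names, so the pair did not separate them. The listed names come from 3 amino acids and share arms within a family, as the sequences above show, and are not independent. The unlisted names include Cys-GCA-5, with the same neighbours as the listed Cys names, and Gln-CTG-3, Thr-CGT-1 and Thr-CGT-2, which are listed at the other T of the same run.

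At position 27 the base before was G in 13 listed names and A in 4, namely the 3 Glu names and Gln-CTG-3. These 4, of which the 3 Glu names share an arm and are not independent, hold the highest and the 3 lowest medians of the group. Their partner at position 43 was G, a wobble pair with U, while it was A in 12 of the 13 names with G before the site. The remaining one, Met-CAT-1, has a gene annotated with an intron inside the arm, and a T stood at position 43 of its joined exons. The base after was C in 11 of 17 listed names and in 1 of 10 unlisted ones, and T in 3 and 6, where the unlisted ones include Gln-CTG-2, listed at the other T of its run. The unlisted Asn-GTT-2, Met-CAT-4 and Thr-CGT-3 were placed on the same genes as the listed Asn-GTT-1, Met-CAT-1 and Thr-CGT-1. Identical arms thus stand on both sides. The listed names with C include Glu, Trp and Ile names that share arms within a family, so these counts are not of independent sites.

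In the loop, the matched sites of the window mostly stood in arms with a pair of T bases before the anticodon. Sites past the window, those of Gly-TCC-1 and Thr-AGT-1 at table position 34, were not counted. Where the anticodon starts at table position 35 or later, as in Asn-GTT-1 and Ile-AAT-1, position 33 itself lies past the window. Such names with T at 33 only could hold no site of the window, so the share of the 47 names below was partly fixed beforehand. Over the 68 matched names, 11 sites were listed at position 33 and 3 at position 34, of which 10 and 2 lay in the window. Of these names, 18 had T at both 32 and 33, and 11 of them held a loop site of the window. In the 47 names with T at 33 only, 1 did, and that was Gly-CCC-1. Its fractions were 0.031 in seedling, 0.074 in shoot, 0.019 in root, 0.039 in rosetta leaf, 0.052 in cauline leaf, 0.040 in stem, 0.025 in flower, 0.015 in silique and 0.065 in seed, the lowest median of all 39 sites. It passed in shoot alone.

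The histidine tRNAs led the loop sites. His-GTG-1 read 0.587 in seedling, 0.748 in shoot, 0.780 in root, 0.652 in rosetta leaf, 0.615 in cauline leaf, 0.767 in stem, 0.850 in flower, 0.824 in silique and 0.818 in seed. His-GTG-2 had a median of 0.742 and a range of 0.288, and both passed in all 9 tissues. Root and seed were not low in His-GTG-1, where seedling was lowest, and His-GTG-2 was lowest in rosetta leaf.

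Threonine tRNA Thr-CGT-1 held a loop site besides its site at 27. The loop site read 0.669 in seedling, 0.472 in shoot, 0.236 in root, 0.666 in rosetta leaf, 0.614 in cauline leaf, 0.433 in stem, 0.541 in flower, 0.612 in silique and 0.360 in seed, with root lowest. It was above the site at 27 of the same tRNA in every tissue, where the median was 0.30. Thr-CGT-2 had medians of 0.470 in the loop and 0.288 at position 27, but in flower its loop site (0.362) was below its site at 27 (0.423). Arg-CCT-1 read 0.449 in seedling, 0.156 in shoot, 0 in root, 0.369 in rosetta leaf, 0.515 in cauline leaf, 0.619 in stem, 0.288 in flower, 0 in silique and 0.407 in seed, and passed in 3 tissues.

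The 7 proline names differed among themselves across tissues. Pro-AGG-1, with the same values as Pro-TGG-1, read 0.060 in seedling, 0.232 in shoot, 0.103 in root, 0.364 in rosetta leaf, 0.225 in cauline leaf, 0.389 in stem, 0.465 in flower, 0.407 in silique and 0.251 in seed. Pro-CGG-1 read 0.547 in seedling, 0.441 in shoot, 0.057 in root, 0.578 in rosetta leaf, 0.615 in cauline leaf, 0.282 in stem, 0.189 in flower, 0.227 in silique and 0.116 in seed. These were given in full after their values had been seen. Flower was the highest tissue of Pro-AGG-1 and seedling the lowest, while in Pro-CGG-1 seedling was high and flower low. The difference of flower minus seedling was 0.405 in Pro-AGG-1 and -0.358 in Pro-CGG-1, whose printed arms differ at position 34 alone, the first base of the anticodon. Pro-CGG-1 was the only proline name with flower below seedling. In Pro-CGG-2, of the same anticodon but listed at table position 33, the difference was 0.136. Since Pro-AGG-1 and Pro-TGG-1 share their values but not base 34, the contrast cannot be assigned to an anticodon, and its cause was not tested. Seedling did not pass in Pro-AGG-1.

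Pro-AGG-3 followed Pro-AGG-1 at lower values, from 0.003 in seedling to 0.284 in flower. The sites of Pro-TGG-2, Pro-TGG-3 and Pro-CGG-2 at table position 33 had medians of 0.509, 0.523 and 0.523 and ranges of 0.226 to 0.267. Flower, silique and seed were their 3 highest tissues, at 0.616 to 0.632. The proline sites at table position 32 had ranges of 0.281 to 0.558. Over the tissues in which a site passed, the ranges were 0.177 to 0.197 at table position 33, and that of Pro-AGG-3 at 32 was smaller, 0.123. In Pro-TGG-1, Pro-TGG-2 and Pro-TGG-3 both listed positions fall in 1 run of T.

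**Figure D3:**
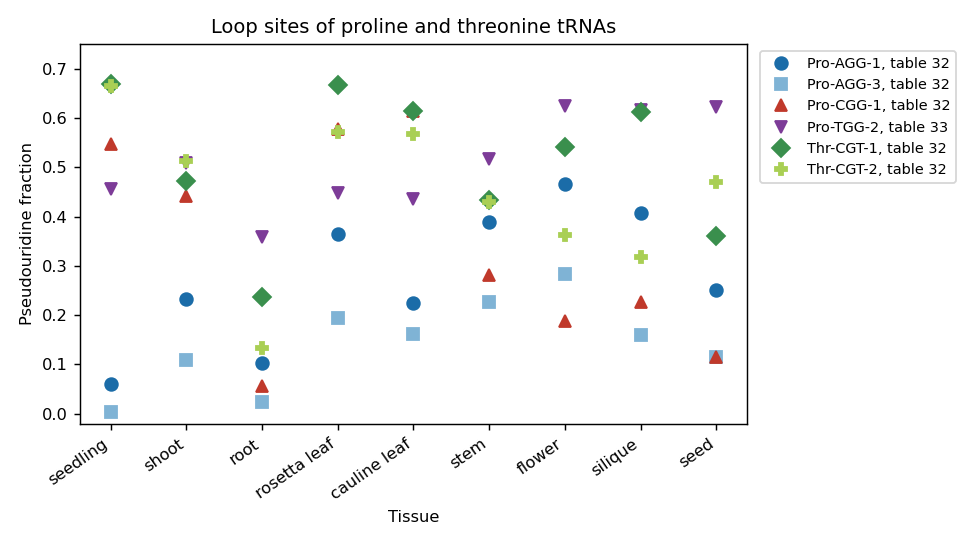
Ψ fraction of loop sites in proline and threonine tRNAs in each of 9 tissues, 1 pooled value per point, with Pro-AGG-1 also standing for Pro-TGG-1. Pro-AGG-1 and Pro-CGG-1 lie far apart in seedling (0.060 and 0.547) and in reverse order in flower (0.465 and 0.189).

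Across tissues, the median of the 39 sites was 0.496 in seedling, 0.509 in shoot, 0.225 in root, 0.515 in rosetta leaf, 0.515 in cauline leaf, 0.523 in stem, 0.465 in flower, 0.471 in silique and 0.36 in seed. Root and seed were low, and the other 7 lay close together. The order depended on the sites taken. Over the sites passed in each tissue, sets that differ between tissues, root became 0.676, above the 0.515 of cauline leaf, and seed became 0.537. Over the 11 sites passed in all 9 tissues, root (0.628) and seed (0.548) were again the low tissues, with the others at 0.740 to 0.824. The median of all tRNA sites with 9 values was also lowest in root, 0.738, and next in seed, 0.829. Root held the lowest value, ties included, in 16 of 39 sites and in 212 of 343 tRNA sites (61.8%). Seed held it in 13 of 39 and in 86 of 343 (25.1%).

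Set against rosetta leaf, seed divided the 3 groups. At position 27 seed was below rosetta leaf in 17 of 17 sites, with a median difference of -0.15. Rosetta leaf had the highest median of the tissues at 27 (0.421) and, after root, the lowest in the loop (0.406), which widens this contrast. Against other tissues the direction at 27 was not uniform. Seed was above stem in Asn-GTT-1 (0.365 and 0.299) and Asn-GTT-3 (0.390 and 0.384), and above seedling in the Glu-TTC names. At position 28 it was below in 6 of 9 sites, and in the loop in 6 of 13, with median differences of -0.067 and 0.026. Over all tRNA sites, seed was below rosetta leaf in 224 of 343 (65.3%). The 9 sites at 27 that were above 0 in seed were all below rosetta leaf, by a median difference of -0.082, which is no separate check. Only 5 of 17 sites at 27 passed in seed, against 17 of 17 in rosetta leaf, and Arg-TCG-1 passed in rosetta leaf alone. A site that is listed through its pass in rosetta leaf can be high there for that reason. The counts at 27 are therefore no independent support for a lower level in seed.

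Of the 351 values, 14 were listed at 0, and 8 of these were in seed. All 8 were at position 27, in Thr-TGT-1, Trp-CCA-1, Trp-CCA-2, Phe-GAA-1, Arg-TCG-1, Ile-AAT-1, Ile-AAT-2 and Met-CAT-1. They comprised 8 of the 13 sites at 27 with G before the site and 0 of the 4 with A, and no site at 28 or in the loop was at 0 in seed. The Glu names among those with A share an arm, as do the Trp names and the Ile names at 0, so these counts are not of independent sites. None of the 14 values at 0 had passed. An exact 0 can be a failed estimate, and over all tRNA sites 50 of 343 were listed at 0 in seed. Leaving the zeros out raised the seed median of the 39 sites from 0.36 to 0.47.

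Root was below shoot in 17 of 17 sites at 27, 9 of 9 at 28 and 12 of 13 in the loop, where His-GTG-1 was the exception, and in 311 of 343 tRNA sites (90.7%). The median differences of root minus shoot were -0.147, -0.169 and -0.129. The step from shoot to root was therefore common to the 3 groups and to tRNA sites at large.

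**Figure D4:**
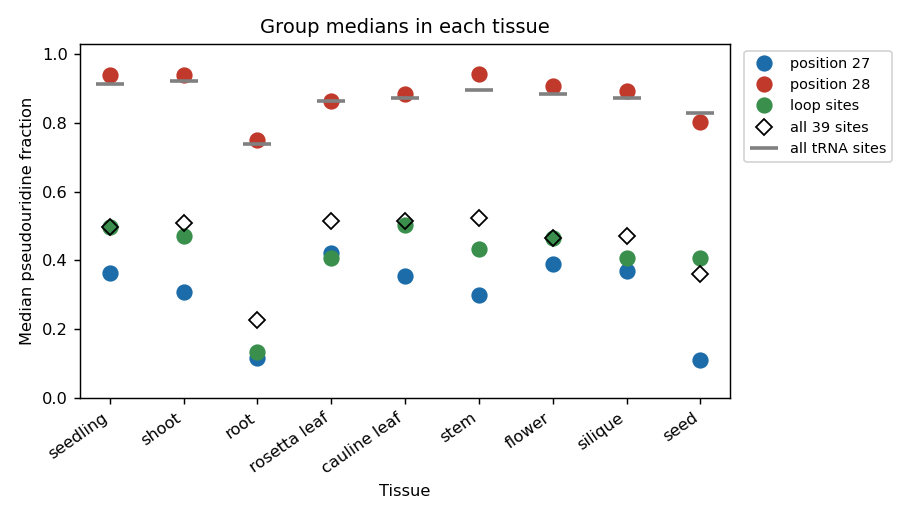
Median Ψ fraction in each of 9 tissues for the sites at position 27 (17), position 28 (9), the loop (13), all 39 sites and all tRNA sites with 9 values. Position 28 stays between 0.750 and 0.942 and near the median of all tRNA sites, position 27 falls to 0.114 in root and 0.109 in seed, and the loop sites fall to 0.133 in root.

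The same class of tRNA was also read elsewhere in the molecule. The 34 sites on the 3' side of the anticodon arm (table positions 34 to 44) had a median of 0.486, the 28 of the D arm (10 to 25) 0.887 and the 59 of the T loop (54 to 60) with 9 values 0.936, beside 0.509 for the 5' side. The 5' side was below the D arm and the T loop in 9 of 9 tissues and below the 3' side in 6 of 9. Sites passed in all 9 tissues were 28.2% of the 5' side, 29.4% of the 3' side, 71.4% of the D arm and 93.2% of the T loop. Restricted to those, the median was 0.767 for the 5' side, 0.984 for the 3' side, 0.890 for the D arm and 0.940 for the T loop, so the order of the 5' and 3' side depends on the filter.

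Within a tRNA, the arm site was compared with the Ψ of the T loop at the place of the conserved position 55, which was listed for 35 of the 39 sites. The arm was lower in 276 of 315 values. At position 27 it was lower in 142 of 144, the exceptions falling in Gln-CTG-3. In the loop it was lower in 90 of 108, and both histidine names were higher in the arm in all 9 tissues, with T loop medians of 0.230 and 0.163. At position 28 the arm was lower in 44 of 63 values. The initiator names Met-i-CAT-1 and Met-i-CAT-3 had T loop medians of 0.636 and 0.708, below their arm medians of 0.806 and 0.777.

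**Figure D5:**
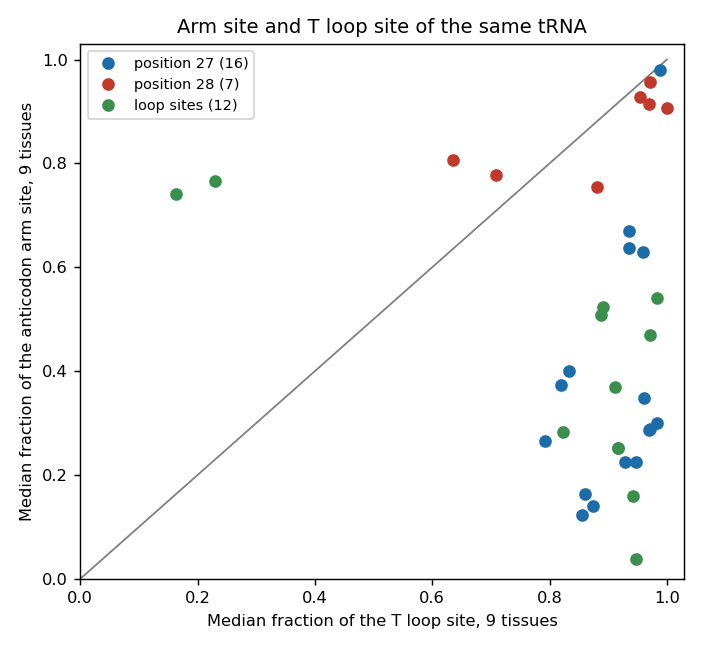
Median Ψ fraction over 9 tissues of the anticodon arm site (vertical axis) against that of the T loop site of the same tRNA (horizontal axis) for 35 pairs, coloured by position in the arm, with the line of equal fractions. The 2 histidine names lie far above the line at 0.163 and 0.230 on the horizontal axis, 2 initiator Met names lie slightly above it, and most other pairs lie well below it.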

How the data were processed

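The authors pooled gapped and ungapped BID-seq reads over both treated replicates of a tissue, mapped to TAIR10 with their pseudoU-BIDseq pipeline, and turned the gap ratio into a deposited fraction by a calibration curve. Positions count along their own references, and read counts were not used here, so depth is unknown. The pass mark deposited with each fraction was counted as given. Here, sites were chosen by name and table position, summarised by medians over sites and by the range over the 9 tissues, and placed on 625 annotated nuclear tRNA genes of TAIR10.1, with introns removed. The first anticodon base was the match with most pairs in the arm stem. Of 33 matched names with a T loop site, 33 had it 18 bases before the gene end, and this site stands for position 55. Full values were given for the highest and lowest median at each table position and the 5 largest ranges. The members, groups and lists were chosen with earlier results of these data known. Anticodon placing recovered 200 of 200 simulated tRNAs. Each was built with a fully paired arm stem, so this checked the code and not the placing on real genes. Neither sites nor tissues are replicates, and no group was tested against another. Dixon's criterion was applied to 9 medians over tissues as a screen. Scripts used matplotlib 3.10.9, Biopython 1.88, pandas 2.3.3 and numpy 2.4.6 in Python 3.11.15.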

Additional observations from a re-analysis of the deposited data

Results flagged for a closer look

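The median of the 13 loop sites was 0.133 in root, and the nearest tissue was rosetta leaf at 0.406. The gap was 0.74 of the whole range over the 9 tissues, above Dixon's critical value for 9 values. Of the 13 sites, 6 passed in root, with a median of 0.435, beside 0.504 for the 10 that passed in rosetta leaf and 0.475 for the 12 that passed in stem. The criterion was applied to 9 overlapping summaries and 1 exceeded it, where chance, at about 1 in 20 each, gives 0.45. Tissues are not replicates of a group, so this describes the spread only.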

How the results depend on the processing

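No paired analysis was possible because only values pooled over replicates were used, and no replicate could be left out for the same reason. With no replicate error, a fraction was taken to have moved when it changed by 0.05 or more and a count when it changed over 1.5 times. Of 151 values under the alternatives, 91 did not move, 59 moved and 1 reversed. The groups by anticodon position, their alternatives and the count of identical sets once were chosen after seeing the data. The order of position 28 above position 27 held in all 8 alternatives, with 0.792 to 0.912 against 0.30 to 0.40.

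Over sites passed in the tissue, the median of the 39 sites became 0.710 in seedling, 0.676 in root, 0.629 in flower, 0.612 in silique and 0.537 in seed. Over sites passed in all 9 tissues it became 0.740 in seedling, 0.813 in shoot, 0.628 in root, 0.764 in rosetta leaf, 0.754 in cauline leaf, 0.777 in stem, 0.824 in flower, 0.824 in silique and 0.548 in seed. With 1 value per anticodon and position it was 0.164 in root, 0.453 in rosetta leaf and 0.277 in seed. As a mean it was 0.353 in root and 0.536 in flower. With zeros left out it was 0.47 in seed, and with identical sets once 0.547 in seedling and 0.567 in cauline leaf.

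By table position, passed values gave 0.485 at 26, 0.515 at 28 and 0.364 at 32, means gave 0.394 at 26, 0.636 at 27 and 0.479 at 28, zeros left out gave 0.363 at 26, and 1 value per anticodon gave 0.63 at 28. Counted from the anticodon, 27 became 0.30, 28 became 0.892 and 33 became 0.326. At position 27 the median was 0.40 over passed values, 0.370 as a mean, 0.373 over sites passed in at least 7 tissues and 0.363 without root and seed. At 28 it was 0.792 outside runs of T. In the loop it was 0.416 as a mean, 0.369 with 1 value per anticodon and 0.523 over sites passed in at least 7 tissues, and the alternative outside runs of T was not run for want of sites.

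The median range of the 39 sites, 0.324, became 0.217 without root and seed and 0.197 over passed tissues. At table position 26 it became 0.418 without seed, 0.418 without root and seed and 0.20 over passed tissues. At table position 28 it became 0.336 without root, 0.174 without root and seed and 0.178 over passed tissues, and at 32 it became 0.347, 0.347 and 0.24. At position 27 it became 0.282, 0.20 and 0.177, and at position 28 it became 0.114 without root and seed. With a fraction of at least 0.1 in place of the pass mark, 20 sites counted in all 9 tissues in place of 11. Over sites passed in all 9 tissues, the 5' side minus the 3' side reversed from 0.02 to -0.22, and the difference from the D arm and T loop became -0.12 and -0.17. The cause of these shifts was not tested. No depth was known, so no limit of detection could be given.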
